A study of Mus musculus with 30 samples.

Results

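The comparison described here set multinucleated osteoclast cultures against cultures kept for 2 days in the same cytokines, both from wild-type mice of 20 months. It used 6 of the 30 libraries of the series, chosen by their titles, 3 in each group. The mice were C57BL/6J, and bone marrow-derived macrophages received the cytokines RANKL (100 ng/ml) and M-CSF (25 ng/ml), either for 2 days or for an unstated time that ended when large multinucleated cells had formed. Both groups therefore received M-CSF and RANKL, and no culture without RANKL was used here. The other 24 libraries came from wild-type or Terc-/- mice (Terc encodes the RNA template of telomerase) of 1 or 6 months. Of these, the 6 libraries of 6-month wild-type mice, 3 multinucleated and 3 kept for 2 days, served as the reference for age. The labels do not say whether libraries of a group came from separate mice or separate cultures. Every p-value therefore measures only the spread between libraries of a group, which may be technical. That spread was estimated jointly over all 30 libraries of the series. Time in culture and degree of fusion changed together, and the contribution of each cannot be told apart.

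Osteoclasts are the cells that resorb bone, and they form when precursors of the macrophage lineage fuse. M-CSF keeps the precursors alive through its receptor, Csf1r, while RANKL binds RANK (Tnfrsf11a) and, through NF-κB and Fos, raises Nfatc1, the transcription factor that switches on most osteoclast genes. The mature cell seals off a patch of bone with a ring of podosomes, acidifies it with a vacuolar proton pump (V-ATPase) and a chloride channel, and digests the matrix with cathepsin K and metalloproteinases. This work consumes much ATP, and osteoclasts are known for their many mitochondria.

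The libraries held between 13182063 and 19806201 counts assigned to genes. After the removal of genes with too few counts, 15310 of 50686 genes were tested. Values below are CPM unless another scale is named: a gene's counts divided by the library total and multiplied by 1e6. The total used is that of the tested genes after TMM scaling, which adjusts it for differences in composition between libraries. Fold changes come from the fitted model. Libraries of one group were close to each other on the first principal component of the 12 wild-type libraries of 6 and 20 months (57.4% of the variance). It placed the 20-month multinucleated libraries between 38.5 and 39.2 and the 20-month 2-day libraries between -31.4 and -30.2. On the second component (9.94%), 20-month 2-day replicate 1 stood apart at 32.8, with replicates 2 and 3 at 18.2 and 20.1. That library also had the lowest count total of the 6. The 10 most abundant genes took 7.54% to 7.86% of the counts in multinucleated libraries and 5.59% to 5.67% in 2-day libraries. No pair of libraries within a group matched within counting noise, so none was treated as a copy.

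In all, 8010 genes (52.3% of those tested) differed between multinucleated and 2-day cultures at an edgeR adjusted p under 0.05. Of these, 3895 (25.4%) were higher and 4115 (26.9%) were lower in multinucleated cultures, and the median log2 fold change over all genes was 0.00 (0.002). Most changes were small: 927 genes rose and 655 fell by more than 2-fold, and 64 rose and 10 fell by more than 8-fold. The 3 multinucleated libraries lay above all 3 of the 2-day libraries for 4619 genes (30.2%) and below all of them for 4769 (31.1%). The counts of list members below are to be read against these shares. RNA here came from whole cultures, so for every gene fewer cells of a type and less RNA per cell cannot be told apart.

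The resorptive machinery of the osteoclast was higher in multinucleated cultures almost throughout. Of 20 genes of resorption and attachment, 19 rose and none fell, with a median log2 fold change of 1.47. Cathepsin K (Ctsk, chromosome 3 of GRCm38, 95499256 to 95509362), the protease that cleaves bone collagen, stood at 6620, 6843 and 7322 in the multinucleated libraries and at 1454, 1447 and 1405 in the 2-day libraries. The groups were far apart, 4.83-fold (log2 2.27 ± 0.08 SE, edgeR adjusted p = 9.6e-22). Tartrate-resistant acid phosphatase (Acp5), the enzyme stained to count osteoclasts, rose 5.52-fold, from 713, 744 and 702 to 3955, 3851 and 4114. The gelatinase Mmp9 rose 6.46-fold, from 1654, 1653 and 1655 to 10300, 10740 and 11010. Both groups were tight for these genes and did not overlap, as the plot of single libraries shows.

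**Figure D1:**
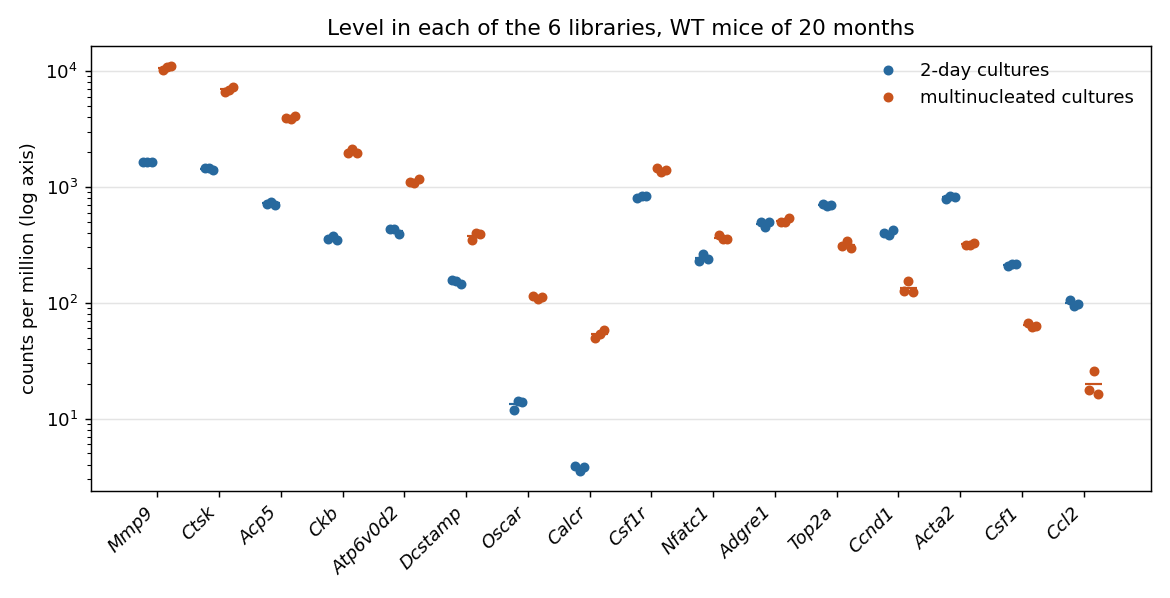
CPM on a log axis for 16 genes in each of the 6 libraries of 20-month wild-type mice; points are libraries and short lines are group means. Ctsk, Acp5, Mmp9, Oscar and Calcr are higher in all 3 multinucleated libraries, Top2a, Ccnd1, Acta2, Csf1 and Ccl2 are lower in all 3, and Adgre1 overlaps.

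The 2 largest rises of this list were in receptors of the mature cell. The calcitonin receptor (Calcr), through which calcitonin stops resorption, was at 49.2, 53.7 and 58.2 in multinucleated and at 3.90, 3.56 and 3.85 in 2-day libraries, 14.2-fold apart. Oscar, a collagen-binding receptor that signals through the FcRγ chain, was at 115, 107 and 112 against 11.8, 14.2 and 13.97, 8.33-fold apart. Among genes of acid and ion transport, carbonic anhydrase 2 (Car2), which supplies protons, rose 3.30-fold. The chloride transporter Clcn7 rose 2.79-fold and the sodium-proton exchanger Slc9b2 rose 2.54-fold. The brain-type creatine kinase Ckb, which buffers ATP, rose 5.60-fold. Integrin β3 (Itgb3) rose 3.27-fold, from 46.8, 45.1 and 49.1 to 150, 152 and 160. Its partner in the vitronectin receptor, integrin αv (Itgav), did not pass the test and overlapped between groups, with 738, 809 and 776 against 742, 737 and 725 (log2 0.08, edgeR adjusted p = 0.41).

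The proton pump rose as a whole, with differences between alternative subunits. Of 19 measured V-ATPase subunits and accessory proteins, 18 rose and none fell, with a median log2 fold change of 0.93; the other 6 of the list had too few counts to be tested. Tcirg1, the a3 subunit that directs the pump to the osteoclast membrane, was at 1634, 1637 and 1628 in multinucleated and 660, 669 and 693 in 2-day libraries, 2.42-fold higher. The a1 subunit Atp6v0a1 did not pass the test, at 99.8, 97.0 and 102 against 96.0, 91.8 and 93.7 (log2 0.09, edgeR adjusted p = 0.15). The a2 subunit Atp6v0a2 passed narrowly, at 71.8, 71.2 and 70.5 against 66.5, 63.5 and 62.9 (log2 0.15, edgeR adjusted p = 0.038). That call was lost when 2-day replicate 2 (adjusted p 0.10), 2-day replicate 3 (0.12) or multinucleated replicate 1 (0.087), 2 (0.071) or 4 (0.062) was left out, and also under DESeq2 (0.084). The d subunits parted in the same manner: Atp6v0d2, which is enriched in osteoclasts and also needed for fusion, rose 2.67-fold (log2 1.42 ± 0.06 SE), and the widely expressed Atp6v0d1 rose 1.47-fold (log2 0.56 ± 0.07 SE). Among further subunits, Atp6v1a rose 2.24-fold, Atp6v1b2 2.17-fold and Atp6v1d 2.41-fold.

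Promoter sequences were read for the V-ATPase genes because MITF and its relatives TFEB and TFE3, which bind the E-box TCACGTG, are known regulators of lysosomal and osteoclast genes. The windows are those of RefSeq on GRCm38.p6, 300 bases that span an annotated start and lie mostly before it, on the strand of the gene. The 7 letters TCACGTG, searched on both strands with overlapping matches counted once, were found in windows of 4 of the 12 genes that rose and had a window: Atp6v1a, Atp6v0b, Atp6v0d1 and Atp6v0e. That was 23.5% of their windows against 3.77% of all 32851 windows. The windows of the matched genes with the largest and the second largest rise are shown, Atp6v1a at chr16:44139210-44139509 (minus strand) and Atp6v0e at chr17:26676146-26676445 (plus strand), with the match in capitals.
Atp6v1a: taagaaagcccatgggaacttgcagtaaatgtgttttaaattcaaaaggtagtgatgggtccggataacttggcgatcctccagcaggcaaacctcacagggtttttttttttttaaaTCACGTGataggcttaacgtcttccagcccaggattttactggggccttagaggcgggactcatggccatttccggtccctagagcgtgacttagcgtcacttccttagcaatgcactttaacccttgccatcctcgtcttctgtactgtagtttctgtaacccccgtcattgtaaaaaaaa
Atp6v0e: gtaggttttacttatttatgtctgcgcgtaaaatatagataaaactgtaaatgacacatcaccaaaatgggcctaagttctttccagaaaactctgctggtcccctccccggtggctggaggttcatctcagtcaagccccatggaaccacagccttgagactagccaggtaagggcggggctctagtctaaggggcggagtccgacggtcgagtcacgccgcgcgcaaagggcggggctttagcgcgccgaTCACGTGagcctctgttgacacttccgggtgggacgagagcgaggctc
In Atp6v1a the match begins at base 119 of the window, and in Atp6v0e at base 253, just past the start. As for the factors themselves, Mitf overlapped between groups, at 125, 134 and 120 in multinucleated and 129, 135 and 131 in 2-day libraries (log2 -0.06, edgeR adjusted p = 0.50). For comparison, the AP-1 site TGANTCA, read on both strands, was in a window of 1 of the 14 resorption genes that rose and had one (4.76% of their windows against 7.81% of all); a match or its lack describes these letters only.

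Lysosomal genes rose in part. Of 36 hydrolases and membrane proteins, 24 rose and 5 fell, with a median of 0.40. Naglu, which degrades heparan sulfate, rose 2.32-fold, and the membrane protein Cd68 rose 2.17-fold. Cathepsin L (Ctsl) fell 2.15-fold, from 1832, 1602 and 1755 to 804, 790 and 816, while cathepsin K rose. The abundant membrane protein Lamp1 fell 1.19-fold (edgeR adjusted p = 4.8e-05).

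Genes of cell fusion split into both directions. Of 21 such genes, 12 rose and 7 fell, with a median of 0.64. Dcstamp, the membrane protein without which precursors do not fuse, stood at 345, 402 and 390 in multinucleated and 156, 153 and 145 in 2-day libraries, 2.51-fold higher. Its relative Ocstamp rose 2.17-fold. Larger rises were found for Tspan7, a tetraspanin of the podosome belt, with 54.6, 60.1 and 60.2 against 7.67, 7.78 and 6.23 (8.11-fold), and for Siglec15, a sialic acid receptor that signals through DAP12 (5.26-fold). The receptor tyrosine kinase Mst1r rose 3.35-fold. In the other direction, the metalloproteinase Adam12 fell 3.84-fold, from 16.9, 17.6 and 16.6 to 3.21, 5.31 and 4.75, and Adam8 fell 1.68-fold. Cdh1, which encodes E-cadherin and is used early in the contact of precursors, fell from 1.99, 2.39 and 1.87 to 1.23, 0.911 and 1.01.

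Genes of the RANK pathway rose more often than they fell, by smaller amounts than the genes of resorption. Of 34 genes of RANK signalling and osteoclast transcription, 19 rose, 3 fell and 12 did not pass, with a median of 0.24. The receptors were higher in multinucleated cultures: Tnfrsf11a rose 1.40-fold, from 203, 201 and 208 to 289, 291 and 279. Csf1r rose 1.70-fold, and the adaptor Tyrobp, also named DAP12, rose 1.75-fold. Nfatc1 was at 383, 353 and 357 against 231, 261 and 237, higher in every multinucleated library (log2 0.58 ± 0.07 SE, edgeR adjusted p = 1.7e-08). Prdm1, which encodes the repressor Blimp1 and silences inhibitors of osteoclast formation, rose 1.89-fold, the AP-1 member Fosl2 rose 1.86-fold and Fos rose 1.31-fold. Ppargc1b, a coactivator of mitochondrial growth in osteoclasts, rose 2.07-fold, the largest rise of the list. The AP-1 member Fosl1 fell 3.44-fold, from 14.3, 17.7 and 14.8 to 4.77, 4.23 and 4.603, Nfatc2 fell 1.61-fold and Myc fell 1.30-fold.

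Repressors of osteoclast formation went both ways, 4 up and 9 down of 19 measured, with a median of -0.21. The inhibitor of DNA binding Id1 fell 1.73-fold and the Notch effector Rbpj fell 1.58-fold. Irf8, a transcription factor of macrophages that RANKL lowers, fell 1.24-fold. Tnfaip3, the deubiquitinase A20 that limits NF-κB, rose 1.96-fold, from 64.2, 60.3 and 59.9 to 122, 119 and 119.

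The genes with the largest rises were mostly of low to middle abundance. By the rule for named genes, the 15 largest rises among genes of at least 5 CPM in the higher group and without overlap of libraries were Corin, Msln, Steap4, Calcr, Clic5, Ckmt1, Rasgrp1, Card14, St8sia6, Oscar, Tspan7, Ephx2, Ttn, Akr1c18 and Mmp9. Corin, a serine protease known from the heart, where it activates natriuretic peptide, was at 20.0, 22.7 and 24.2 against 0.753, 1.06 and 0.709, 26.3-fold higher. Msln, which encodes mesothelin, was at 7.93, 7.34 and 9.30 against 0.206, 0.500 and 0.304, 23.4-fold higher. Steap4, a metalloreductase of iron and copper, was at 37.5, 32.1 and 36.9 against 2.60, 2.00 and 2.28, 15.6-fold higher. The mitochondrial creatine kinase Ckmt1 rose 11.97-fold beside the cytosolic Ckb. Rasgrp1, an exchange factor for Ras, rose 11.4-fold, Ephx2, a soluble epoxide hydrolase, 7.52-fold and Akr1c18, a steroid dehydrogenase, 6.66-fold. Iron genes as a list did not go with Steap4: 8 of 18 measured rose and 7 fell, with a median of -0.04. Among the risers, Ncoa4, the receptor for autophagy of ferritin, rose 2.02-fold and the iron exporter Slc40a1 1.71-fold.

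**Figure D2:**
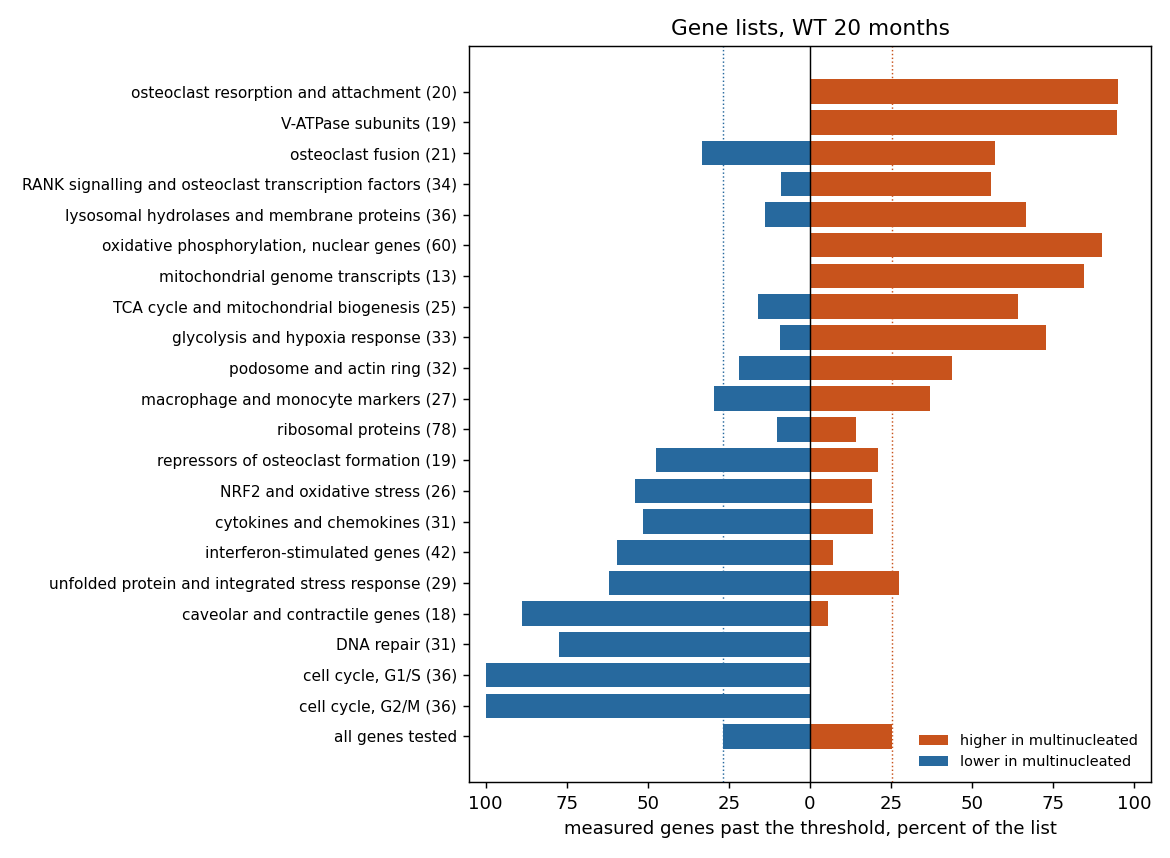
Share of the measured genes of each list (number in brackets) that were higher (right) or lower (left) in multinucleated than in 2-day cultures at an edgeR adjusted p under 0.05; dotted lines mark the shares over all genes tested, 25.4% higher and 26.9% lower. Resorption, V-ATPase and respiratory chain lists extend to the right and cell cycle lists to the left.

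Genes of respiration rose together by small amounts. Of 60 nuclear genes for subunits of oxidative phosphorylation, 54 rose, none fell and 6 did not pass, with a median of 0.53. Sdha, the catalytic subunit of complex II, was at 763, 747 and 768 in multinucleated and 403, 398 and 411 in 2-day libraries, 1.88-fold higher. Ndufa1 of complex I rose 2.04-fold, the largest rise of the list. Of 13 transcripts of the mitochondrial genome, 11 rose and none fell, with a median of 0.60. The most abundant, mt-Co1 of complex IV, rose 1.54-fold, from 9564, 9635 and 9485 to 14450, 14300 and 15390. Mitochondrial transcripts took 3.79% to 4.02% of counts in multinucleated and 2.68% to 2.76% in 2-day libraries. In the tricarboxylic acid cycle and mitochondrial biogenesis, 16 of 25 measured genes rose and 4 fell. Pdk4, a kinase that shuts pyruvate out of the cycle, fell 2.13-fold, while Pdk1, a kinase of the same family, rose by 0.96 on the log2 scale. Tfam, the packaging factor of mitochondrial DNA, fell 1.31-fold.

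Per kilobase of annotated exon, the 5 most abundant genes of multinucleated cultures were mt-Co1 (mean 9524 RPKM), mt-Cytb (4836), Lyz2 (4830), Ctsk (4582) and mt-Nd1 (4522). In 2-day cultures they were mt-Co1 (6189 RPKM), Lyz2 (5390), mt-Nd1 (3355), Eef1a1 (3315) and Fth1 (3121). Ctsk was at 950 RPKM in 2-day cultures. RPKM here means CPM per kilobase of exon, averaged over 3 libraries. Reads of mitochondrial genes and of Fth1 can be shared with nuclear copies, and the recorded counting command sets no option for such reads.

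The cell cycle was lower without exception among the genes listed. All 36 measured genes of DNA synthesis and the G1/S transition fell, with a median of -0.92, and all 36 genes of the G2 and M phases fell, with a median of -1.01. Ccnd1, the cyclin D1 that starts the cycle, was at 127, 153 and 125 in multinucleated and 400, 387 and 425 in 2-day libraries, 2.998-fold lower. Rrm2, the small subunit of ribonucleotide reductase, fell 2.83-fold and the origin licensing factor Cdc6 fell 2.54-fold. Topoisomerase IIα (Top2a) was at 307, 338 and 298 against 712, 687 and 694, 2.22-fold lower (log2 -1.15 ± 0.06 SE, edgeR adjusted p = 5.4e-17). The phosphatase Cdc25c, which triggers mitosis, fell 2.34-fold, the kinetochore gene Nuf2 2.30-fold and the checkpoint kinase Bub1 2.20-fold. Every multinucleated library still held 298 CPM or more of Top2a.

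A pair of promoter elements known from these genes was looked for, the cell cycle homology region TTTGAA, bound by the DREAM complex at G2/M genes, and the E2F site TTTCCCGC, both on either strand. TTTGAA was in windows of 21 of the 30 G2/M genes that had a window, 71.9% of their windows against 17.9% of all. TTTCCCGC was in windows of 5 of the 28 G1/S genes that had one, 15.6% against 1.07%. Printed with the matches in capitals are Top2a at chr11:99024140-99024439 (minus strand) and Ect2 at chr3:27153829-27154128 (minus strand), the matched G2/M genes with the largest falls, and Cdc6 at chr11:98907901-98908200 (plus strand), the same for G1/S.
Top2a: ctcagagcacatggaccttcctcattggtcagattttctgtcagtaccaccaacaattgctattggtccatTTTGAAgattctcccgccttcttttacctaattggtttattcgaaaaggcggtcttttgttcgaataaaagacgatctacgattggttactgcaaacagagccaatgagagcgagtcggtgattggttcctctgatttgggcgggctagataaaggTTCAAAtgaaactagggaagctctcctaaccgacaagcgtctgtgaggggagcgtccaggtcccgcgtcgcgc
Ect2: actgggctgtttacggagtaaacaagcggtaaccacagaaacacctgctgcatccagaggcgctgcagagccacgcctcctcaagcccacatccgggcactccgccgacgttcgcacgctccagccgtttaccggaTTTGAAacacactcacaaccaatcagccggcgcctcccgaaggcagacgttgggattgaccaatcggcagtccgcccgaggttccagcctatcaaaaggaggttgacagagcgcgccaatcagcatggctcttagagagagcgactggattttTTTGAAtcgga
Cdc6: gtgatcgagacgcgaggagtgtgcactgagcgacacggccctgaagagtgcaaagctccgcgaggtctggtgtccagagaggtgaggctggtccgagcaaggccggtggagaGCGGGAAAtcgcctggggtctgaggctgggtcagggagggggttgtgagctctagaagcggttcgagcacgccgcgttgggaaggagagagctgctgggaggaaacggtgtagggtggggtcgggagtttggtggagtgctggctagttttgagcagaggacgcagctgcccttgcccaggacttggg
Top2a and Ect2 hold 2 matches each and Cdc6 holds 1, at base 113 of its window. Ect2, an exchange factor for small GTPases in cytokinesis, fell 2.19-fold, from 88.2, 82.1 and 78.1 to 38.5, 38.3 and 36.7. Many genes hold these short letters, and a match is no evidence that a factor was bound.

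Genes that accompany the cycle were mixed. Of 31 genes of DNA repair, 24 fell and none rose, with a median of -0.77. Of 24 measured genes of telomerase and telomere maintenance, 13 fell and 5 rose. Dkc1, which stabilises the telomerase RNA, fell 1.77-fold and the telomere-binding Terf1 fell 1.79-fold; the telomerase RNA itself, Terc, had 3 counts in the 6 libraries together. Among inhibitors of the cycle and genes used as marks of senescence, 5 of 18 rose and 12 fell. Cdkn1b, the inhibitor p27, rose 1.67-fold, from 29.8, 31.8 and 29.7 to 48.9, 49.6 and 54.3. Cdkn2b, the inhibitor p15, was low, at 9.64, 6.97 and 9.21 against 4.93, 4.39 and 3.49, and rose 2.04-fold.

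In the lists of the stress responses more members fell than rose. Of 29 genes of the unfolded protein and integrated stress responses, 18 fell and 8 rose, with a median of -0.49; the 8 became 4 without 2-day replicate 1 and 5 with scaling by library totals. The 4 largest falls were Psat1 (2.46-fold) and Phgdh (2.43-fold), which make serine, the amino acid transporter Slc7a5 (2.28-fold) and Shmt2 (2.00-fold), which passes the carbon of serine on to folate. Psat1 went from 158, 167 and 156 to 65.4, 67.4 and 62.9. Ddit3, the stress factor CHOP, rose 1.38-fold. Of 26 NRF2 and oxidative stress genes, 14 fell and 5 rose. Nqo1 fell 2.07-fold and Gclm, which supplies glutathione, 1.88-fold, while Gstm1 rose 1.48-fold.

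Chemokines made up some of the largest falls. The 15 largest falls under the same rule were Apol8, Ccl7, Ccl12, Cavin2, Nptx1, Ccl2, Col11a1, Ccn4, Hs6st2, Parm1, Rflnb, Igkc, Cxcl12, Adamts5 and Ighg2b. Ccl2, which attracts monocytes, was at 17.5, 25.8 and 16.2 in multinucleated and 105.2, 93.3 and 97.6 in 2-day libraries, 4.99-fold lower. Ccl7, its neighbour in function, fell 6.93-fold, from 55.9, 54.0 and 53.7 to 7.12, 9.27 and 7.24. Over 31 measured cytokines and chemokines, 16 fell and 6 rose, with a median of -0.39 that became -0.62 without 2-day replicate 1. Csf1, which encodes M-CSF, was at 67.4, 61.3 and 62.7 against 207, 214 and 216, 3.33-fold lower. Interferon-stimulated genes were lower by small amounts: 25 of 42 fell and 3 rose, with a median of -0.36. Mx1 and Cmpk2, both antiviral, fell 1.95-fold and 1.91-fold, and the transcription factor Irf1 rose 1.55-fold. The immunoglobulin genes Igkc and Ighg2b were at 9.78 CPM or less in every library of the 6, belong to families of near-identical segments, and are uncertain; Igkc did not pass under DESeq2 (adjusted p = 0.083).

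Markers of the macrophage lineage went both ways, where 25.4% of all genes rose and 26.9% fell. Of 27 measured macrophage and monocyte markers, 10 rose and 8 fell, with a median of 0.06 that became -0.01 with scaling by library totals. Adgre1, the F4/80 antigen, overlapped between groups, at 501, 497 and 537 against 494, 446 and 499. The largest rises of this list were in Cd68, Clec4a1, Mertk and Csf1r, with log2 fold changes of 1.115, 0.91, 0.87 and 0.767. Scavenger, Fc and pattern receptors were among the genes that fell. Cd36 fell 2.71-fold, from 777, 689 and 697 to 265, 267 and 267, Fcgr1 1.84-fold, Tlr2 1.58-fold and Msr1 1.56-fold. Lysozyme (Lyz2) was at 6514, 6158 and 6398 against 7337, 6833 and 7109, and its fall of 1.12-fold did not pass the test without multinucleated replicate 2 (adjusted p = 0.060). Of 13 measured genes of the class II list of antigen presentation 6 rose and 2 fell, and their summed level overlapped, at 870.3 to 958.4 CPM in multinucleated and 910.2 to 928.7 CPM in 2-day libraries. H2-Aa, a class II chain, rose from 1.10, 1.33 and 2.03 to 6.37, 5.74 and 7.72 and its invariant chain Cd74 from 16.2, 18.95 and 18.8 to 58.1, 49.2 and 59.6. In lipid handling, 8 of 18 measured genes rose and 5 fell, with the cholesterol exporter Abca1 2.29-fold higher and the nuclear receptor Pparg 1.63-fold lower.

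Regulators of cell death and signals to other bone cells also changed. Of 23 apoptosis genes, 10 rose and 7 fell. Bmf, a BH3-only protein that promotes death, rose 3.40-fold, from 9.52, 10.3 and 9.72 to 36.6, 29.1 and 34.8. Pmaip1, the BH3-only protein Noxa, rose 2.99-fold, from 34.3, 29.5 and 28.6 to 90.0, 92.1 and 92.8, and Bcl2l11, the BH3-only protein Bim known to limit osteoclast life, rose 1.88-fold. Of their targets, Mcl1 rose 1.47-fold, Bcl2 fell 1.94-fold and Bcl2l1 fell, with a log2 fold change of -0.746. The death-promoting genes Tnfsf10 and Bid fell too, with log2 fold changes of -1.761 and -0.597. Of 19 measured genes for factors that osteoclasts send to osteoblasts, 10 rose and 2 fell, with a median of 0.40. Sphk1, which makes sphingosine 1-phosphate, rose 3.61-fold, from 2.88, 3.89 and 2.89 to 10.9, 11.7 and 12.4. Sema4d, a semaphorin that restrains osteoblasts, rose 1.78-fold and Bmp2, at 3.11 CPM or less, 2.31-fold. In the p53 pathway, 6 of 31 genes rose and 15 fell. Trp53inp1, which p53 induces, rose 1.998-fold. The largest falls were in Pidd1, Gdf15, Gtse1 and Plk3, with log2 fold changes of -1.029, -0.974, -0.92 and -0.813. Among 28 immediate early and heat shock genes 6 rose and 11 fell, and the chaperone Hsph1 fell 2.19-fold, from 174, 182 and 174 to 83.6, 83.7 and 75.1. Of 20 genes of resident tissue macrophages 6 rose and 5 fell, and Axl, a receptor for dying cells, fell 2.51-fold.

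Of 32 genes of podosomes and the actin ring 14 rose and 7 fell, with a median of 0.08. Scaling by library totals gave 11 up and 11 down. The small GTPase Rhou rose 3.11-fold and Rac2, the Rac of blood cells, 2.65-fold, from 216, 237 and 212 to 603, 578 and 580. Dock5, an exchange factor for Rac needed for resorption, rose 1.91-fold. The largest falls were in Tpm4, Wasl, Myh9 and Actb, with log2 fold changes of -0.524, -0.338, -0.295 and -0.273. Ribosomal protein genes, taken as a set without a part in the process, had a median of 0.01 (-0.06 with scaling by library totals), and 59 of 78 did not pass.

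Markers of other cells of a marrow culture moved as well. Of 18 caveolar and contractile genes, typical of smooth muscle-like stroma, 16 fell and 1 rose, with a median of -1.10; their summed level was 1397 to 1479 CPM in multinucleated and 2214 to 2318 CPM in 2-day libraries. Acta2, smooth muscle actin, was at 318, 317 and 331 against 778, 840 and 817, 2.52-fold lower, and calponin (Cnn1) fell 2.63-fold. Of 28 measured stromal and matrix genes, 15 fell and 5 rose, with a median of -0.24. Osteoprotegerin (Tnfrsf11b), the decoy receptor that blocks RANKL, was at 14.7, 11.3 and 14.2 against 29.9, 29.5 and 31.4, 2.25-fold lower. Collagen I (Col1a1) overlapped, at 962, 848 and 967 against 935, 1012 and 989, and collagen VI (Col6a1) rose 2.42-fold, from 82.4, 88.4 and 81.1 to 225, 177 and 208. Cav1 was the contractile-list gene that rose, 1.48-fold. Transcripts typical of stroma were thus present in amounts that differed between the groups, and their part in the falls of Csf1, Cxcl12 and the matrix genes was not tested.

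Markers of blood cells were scarce. Of 18 neutrophil genes 7 could be tested, 5 of which fell, at a summed 32.2 to 38.6 CPM in multinucleated and 33.6 to 42.9 CPM in 2-day libraries. The lymphocyte lists were led by Il7r, which fell 2.18-fold, from 54.3, 46.9 and 48.8 to 21.5, 21.7 and 25.5; of the other markers of T and NK cells, Cd4 and Trac were at 4.06 CPM or less and Lck at 0.304 or less, and 12 of 16 had too few counts to be tested, Cd3e among them. B cell markers summed to 12.4 to 15.2 CPM against 16.8 to 18.5 CPM. All 6 libraries held transcripts of Y-linked genes and at most 9 counts of Xist.

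The same contrast at 6 months served to ask which changes differed with the age of the mice. It uses none of the same libraries. There, 3582 genes (23.4%) were higher and 4199 (27.4%) lower in multinucleated cultures. Of the genes called at 20 months, 72.5% were called in the same direction at 6 months, and of those called at 6 months, 74.6% were called in the same direction at 20 months. Across all genes tested, which are not independent replicates, the log2 fold changes had a Pearson correlation of 0.73 and a Spearman correlation of 0.75. A direct test of the difference between the 2 changes called 1152 genes (7.52%) with a more positive change at 20 months and 744 (4.86%) with a more negative one. The second number was 419 without multinucleated replicate 4 of 6 months. Of 5891 genes called at both ages, 87 went in opposite directions.

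**Figure D3:**
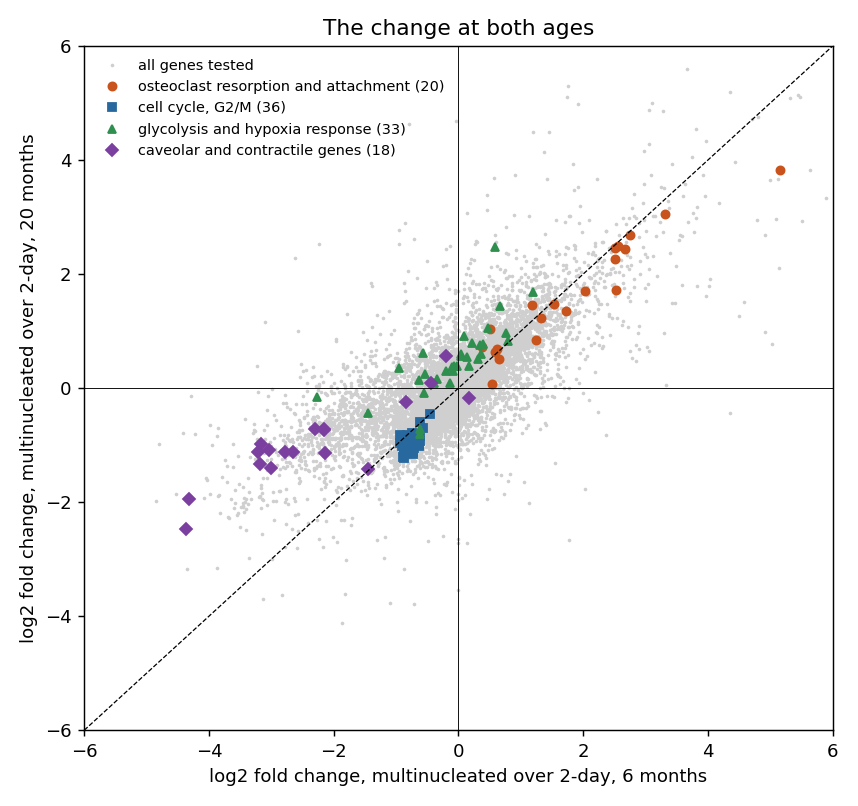
Log2 fold change of multinucleated over 2-day cultures at 6 months (horizontal) and 20 months (vertical) for all genes tested, with 4 lists in colour and the line of equal change dashed; 3 genes lie outside the axes. Resorption genes have positive and G2/M genes negative values at both ages, with G2/M medians of -1.01 at 20 and -0.77 at 6 months. Glycolysis and hypoxia genes lie mostly above the line, with medians of 0.39 at 20 and -0.03 at 6 months. Caveolar and contractile genes fell less at 20 months.

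In the resorption list 19 of 20 genes rose at 20 months and 20 of 20 at 6 months. The difference between the changes passed for 8 of them, 6 more negative and 2 more positive at 20 months. It passed for 6 of 19 V-ATPase genes, all more negative. The V-ATPase list as a whole had a median difference of 0.006, with medians of 0.932 at 20 and 0.943 at 6 months. In the resorption list the largest difference was that of Calcr, at -1.33 ± 0.20 SE (edgeR adjusted p = 1.1e-05). Calcr rose 14.2-fold at 20 months and by log2 5.16 at 6 months. Its levels in multinucleated libraries were 49.2 to 58.2 at 20 and 52.2 to 56.1 at 6 months, whereas in 2-day libraries they were 3.56 to 3.90 at 20 and 1.24 to 1.83 at 6 months. The multinucleated ranges overlapped between the ages and the 2-day ranges did not. Atp6v0d2 also rose less at 20 months (difference -0.31 ± 0.09 SE, adjusted p = 0.014), with 392 to 433 in 2-day libraries at 20 months and 311 to 378 at 6 months. Tcirg1 did not differ beyond error (difference 0.03 ± 0.08 SE). Akr1c18 rose less at 20 months (difference -0.55 ± 0.13 SE, adjusted p = 0.0041).

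Genes of glycolysis and the response to hypoxia rose more often at 20 months than they did at 6 months, and 23 of 33 passed the test of the difference. This response is run by HIF1, which is degraded in the presence of oxygen after marking by the hydroxylases Egln1 to Egln3. At 20 months 24 of 33 genes rose and 3 fell, with a median of 0.39; at 6 months 12 rose and 13 fell, with a median of -0.03. All 23 differences that passed were more positive at 20 months, where 7.52% of all genes were more positive and 4.86% more negative. Egln3, itself a target of HIF1, was at 23.1, 34.2 and 33.3 in multinucleated and 4.38, 6.17 and 5.67 in 2-day libraries at 20 months, 5.53-fold higher. At 6 months it was at 21.1, 7.23 and 7.02 in multinucleated and 7.11, 7.78 and 8.12 in 2-day libraries, so that 1 multinucleated library stood above the other 5. The difference between the changes was 1.88 ± 0.34 SE (edgeR adjusted p = 0.00015). Vegfa, the vascular growth factor, moved in opposite directions: 92.0, 122 and 124 against 70.6, 81.0 and 69.4 at 20 months, and 84.5, 60.0 and 56.8 against 100.9, 104 and 94.1 at 6 months (difference 1.19 ± 0.14 SE).

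**Figure D4:**
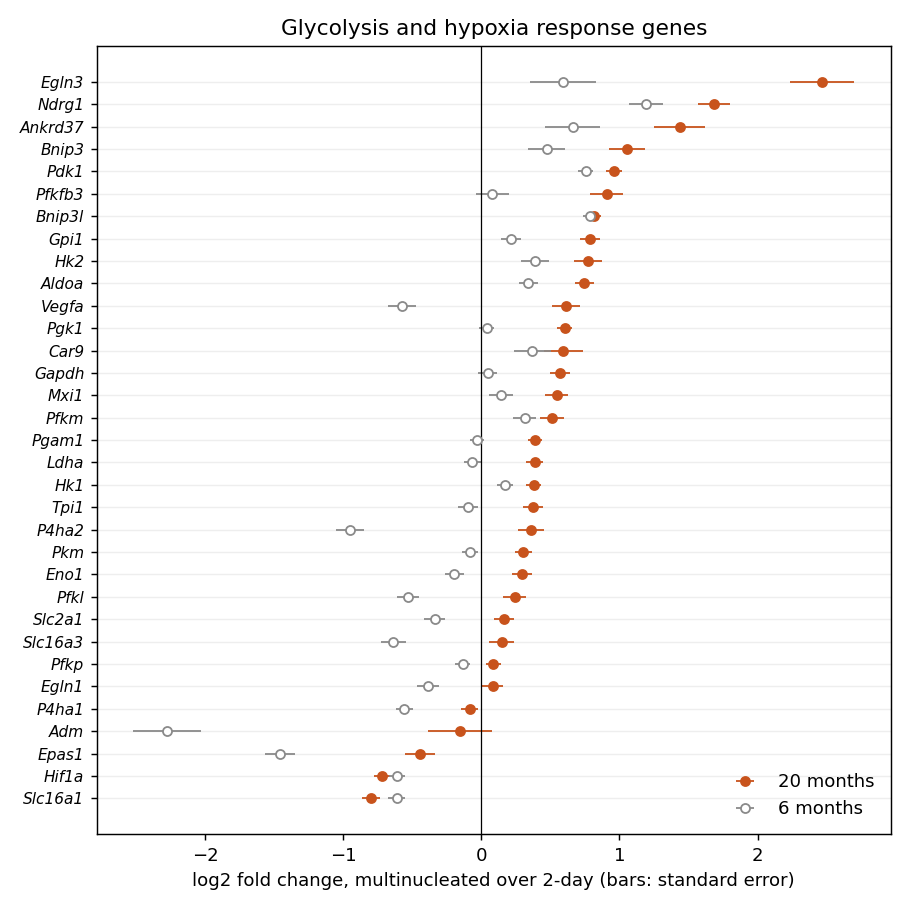
Log2 fold change of multinucleated over 2-day cultures for 33 glycolysis and hypoxia response genes, with bars of 1 standard error, at 20 months (filled) and 6 months (open), in order of the 20-month value. Egln3 leads at 2.47, and filled points lie to the right of the open ones for 31 genes, all but Slc16a1 and Hif1a.

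Collagen hydroxylase P4ha2 and the phosphofructokinase Pfkl showed the same crossing as Vegfa. P4ha2 changed by 0.36 at 20 and -0.95 at 6 months (difference 1.31 ± 0.14 SE), and Pfkl by 0.24 and -0.53 (difference 0.77 ± 0.11 SE). The rise of Pfkl at 20 months did not pass without multinucleated replicate 2 (adjusted p = 0.082). Adrenomedullin (Adm) fell at 6 months, from 11.3, 10.6 and 10.5 to 3.15, 1.89 and 1.74, and overlapped at 20 months, at 3.32, 5.52 and 6.47 against 4.73, 6.17 and 6.13 (difference 2.12 ± 0.34 SE). The glycolytic enzymes Gapdh and Pgk1 rose 1.48-fold and 1.52-fold at 20 months and did not pass at 6 months, with log2 values of 0.05 and 0.04; the differences of 0.52 ± 0.10 SE and 0.57 ± 0.08 SE passed the test. The lactate exporter Slc16a3 did not pass at 20 months (log2 0.15) and fell at 6 months by 0.64 on the log2 scale (difference 0.78 ± 0.13 SE). The glucose carrier Slc2a1 was at 97.8, 117 and 117 against 92.7, 104.9 and 98.1 at 20 months (adjusted p = 0.055), and passed when 2-day replicate 2 (0.032) or multinucleated replicate 1 (0.0067) was left out. Transcripts of the factors themselves were lower: Hif1a fell 1.64-fold and Epas1, which encodes HIF2α, 1.36-fold at 20 months. In several of these genes multinucleated replicate 1 of 20 months was the lowest of its group and multinucleated replicate 2 of 6 months the highest of its group. Without the first, 26 of the 33 genes passed with a more positive change, and without the second 27 did. The cause of these departures was not tested. Leaving out any other library of these groups gave 20 to 23 such genes. Without multinucleated replicate 2 of 20 months, 1 gene passed with a more negative change.

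Contractile genes fell at both ages, and fell less at 20 months. Of the 18, 15 had a more positive change at 20 months and 1 a more negative one, with a median difference of 1.55; for 28 stromal and matrix genes the numbers were 19 and 0, with a median difference of 1.21. Acta2 fell 2.52-fold at 20 months and by 3.18 on the log2 scale at 6 months (difference 1.85 ± 0.12 SE). In 2-day libraries it stood at 778 to 840 at 20 and at 1746 to 2037 at 6 months, and in multinucleated libraries at 317 to 331 at 20 and at 180 to 227 at 6 months. Myl9 (difference 1.94), Cnn1 (1.61) and Actg2 (2.09), further contractile proteins, behaved alike. Collagen genes differed from them: Col1a1 overlapped at 20 months and fell by 1.35 at 6 months (difference 1.27 ± 0.12 SE), and Col3a1 rose 1.30-fold at 20 months and fell by 0.92 at 6 months (difference 1.29 ± 0.15 SE). Col6a1 rose at both ages (difference 0.73 ± 0.16 SE).

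**Figure D5:**
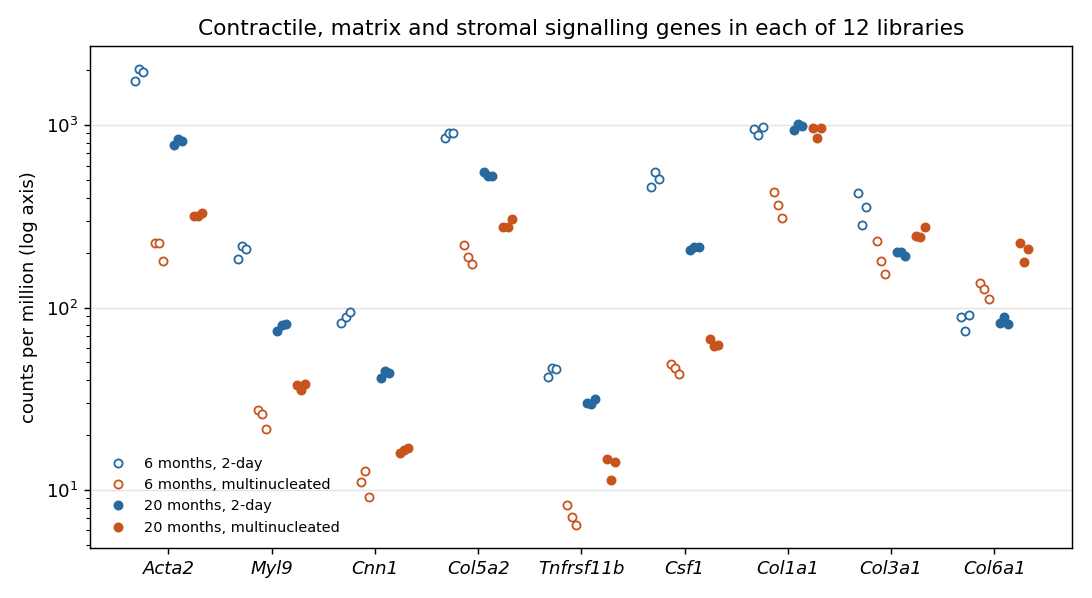
CPM on a log axis for 9 contractile, matrix and stromal signalling genes in each of 12 wild-type libraries, open for 6 and filled for 20 months, blue for 2-day and orange for multinucleated cultures. For Acta2, Myl9, Cnn1, Col5a2, Tnfrsf11b and Csf1 the 2 groups of 20 months lie between those of 6 months; Col1a1 overlaps at 20 months only.

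Beyond the lists, the 8 largest positive differences between ages were in Krt19, Fndc1, Edn1, Siglecg, Ankrd1, Mgll, Amotl2 and Aif1l, genes of low to middle abundance. Krt19, a keratin, fell by 0.84 on the log2 scale at 20 months and by 3.87 at 6 months (difference 3.03 ± 0.36 SE). Ankrd1 and Amotl2, both known targets of the mechanosensitive cofactor YAP, changed by -1.95 and -0.89 on the log2 scale at 20 months and by -4.32 and -3.22 at 6 months. Edn1, the vasoconstrictor endothelin 1, changed by -1.57 and -4.05, and Siglecg, an inhibitory sialic acid receptor, by -1.62 and -4.03. Fndc1 did not pass at 20 months, at 3.16 to 3.48 against 2.78 to 3.01, and its difference between ages was lost under DESeq2 (adjusted p = 0.11). The largest negative differences in protein-coding genes were in Mybpc3, Sgsm1, Calcr, Itgax, Rgs1 and Tspoap1. Itgax, the integrin CD11c of dendritic cells and osteoclast precursors, changed by 0.32 at 20 and 1.42 at 6 months (difference -1.11 ± 0.16 SE), with 2-day libraries at 29.5 to 32.1 at 20 and 11.1 to 13.8 at 6 months. The 20-month change of Itgax did not pass without multinucleated replicate 1 (adjusted p = 0.11). Rgs1, which damps G protein signalling, fell by 1.40 at 20 and by 0.35 at 6 months.

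The list of factors sent to osteoblasts also differed between the ages. It shares Vegfa with the hypoxia list and Postn with the stromal and matrix list. At 20 months 10 of 19 rose and 2 fell, with a median of 0.40. At 6 months 6 rose and 7 fell, with a median of -0.03. The difference passed with a more positive change at 20 months for 8 of the 19 and with a more negative one for none.

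The cell cycle lists fell at both ages, with a tendency to a deeper fall at 20 months for G2/M genes. All 36 fell at each age, with medians of -1.01 at 20 and -0.77 at 6 months, and the difference passed the test for 14 of 36, all with the more negative change at 20 months. For Top2a it was -0.43 ± 0.09 SE (edgeR adjusted p = 0.00062) and for Bub1 -0.39 ± 0.09 SE (0.0026). The count of 14 was 6 without multinucleated replicate 4 of 6 months, 7 without multinucleated replicate 4 of 20 months and 9 without multinucleated replicate 1 of 20 months.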

How the data were processed

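RNA of 30 cultures was measured by sequencing of polyadenylated RNA, per the labels' protocols. The authors deposited whole-number counts per gene for each library; per the file headers they come from featureCounts 1.6.0 over exons of the Ensembl 88 annotation of GRCm38, on STAR alignments. The submitters' processing notes name HTSeq and mm10 instead; the headers were followed. The recorded command sets no option for strand or for reads with several positions, so antisense partners and near-identical copies cannot be separated.

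From these counts, edgeR 4.0.16 (R 4.3.3) was run with TMM scaling, its default filter on low counts and 1 coefficient per group over all 30 libraries, so that groups share the estimate of spread. Quasi-likelihood tests compared multinucleated with 2-day cultures at 20 months, at 6 months, and the 2 changes with each other, with Benjamini-Hochberg adjustment over 15310 genes and a threshold of 0.05. Fold changes are fitted values; SE is their standard error. The tests were checked on simulated data. Named genes were, per list and direction, up to 4 with the largest changes plus defining members, the 15 largest rises and falls of at least 5 CPM without overlap of libraries, the 8 largest differences between ages in each direction, and the 5 most abundant per kilobase. The comparison, gene lists, motifs and rules were chosen with earlier results of these data known, so a list's count is a description. Further genes of a list were chosen after their values were seen. Replicate numbers were not used to pair the groups. Deviations of same-numbered libraries correlated at -0.03 and -0.02, but with so few libraries this cannot exclude pairing. Alternatives (DESeq2 1.42.0, other scaling, no filter, fewer libraries) are given at the end. Protein sequences were not used here.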

Additional observations from a re-analysis of the deposited data

Results flagged for a closer look

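For 1152 genes the change from 2-day to multinucleated cultures was more positive at 20 than at 6 months, and for 744 it was more negative, by the edgeR test of the difference itself. Values below are log2 differences of the 2 changes, 20 minus 6 months, for genes named in the report, all with an adjusted p under 0.05.

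Among glycolysis and hypoxia genes the difference was 2.12 for Adm, 1.88 for Egln3, 1.31 for P4ha2, 1.19 for Vegfa, 0.78 for Slc16a3, 0.77 for Pfkl, 0.57 for Pgk1, 0.52 for Gapdh and 0.50 for Slc2a1. Among contractile and collagen genes it was 2.37 for Ankrd1, 2.09 for Actg2, 1.94 for Myl9, 1.85 for Acta2, 1.61 for Cnn1, 1.29 for Col3a1, 1.27 for Col1a1 and 0.73 for Col6a1. Other genes with a more positive change at 20 months were Krt19 (3.03), Fndc1 (2.53), Edn1 (2.47), Siglecg (2.41), Mgll (2.36), Amotl2 (2.34) and Aif1l (2.34).

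A more negative change at 20 months was found for Mybpc3 (-1.55), Sgsm1 (-1.39), the calcitonin receptor Calcr (-1.33), Itgax (-1.11), Rgs1 (-1.05), Tspoap1 (-0.94), Akr1c18 (-0.55), Top2a (-0.43), Bub1 (-0.39) and Atp6v0d2 (-0.31). Mybpc3 and Tspoap1 overlapped between the 20-month groups and rose at 6 months by 1.68 and 1.01. Groups of 3 libraries are too small for a test of single outlying libraries.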

How the results depend on the processing

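Counts of called genes at 20 months stayed within 1.5 times the reported 3895 higher and 4115 lower under DESeq2 (3477 and 4098), library totals as the only scaling (3299 and 4820), DESeq2 size factors (3695 and 4340), no filter (4032 and 3664) and the 6 libraries alone (4100 and 4306). Leaving out 1 library at a time gave 3534 to 3617 higher and 3704 to 3917 lower. A fit with the replicate number as a block, though only numbers 1 and 2 are shared and no pairing is known, gave 3203 and 3348. That fit left 7 of 13 mitochondrial transcripts higher and 10 of 42 interferon-stimulated genes lower (25 without the block, 17 to 31 when 1 library was left out). For the difference between ages, leave-one-out fits gave 877 to 1155 genes with a more positive change and 419 to 826 with a more negative one, lowest without multinucleated replicate 4 of 6 months. With only the 12 wild-type libraries of both ages the more negative ones numbered 1476; the cause was not tested. Of 195 genes checked, 2 changed sign, neither of them called: leaving out 1 library gave -0.369 to 0.073 for Adm (highest without multinucleated replicate 1) and -0.068 to 0.291 for Mybpc3 (lowest without multinucleated replicate 4). Scaling by library totals put the median of all genes at -0.06; list medians near 0 changed sign with it for macrophage markers (-0.01), apoptosis genes (-0.005) and ribosomal proteins (-0.06). Col3a1, P4ha2 and Mx1 did not pass with the block (adjusted p 0.084, 0.058 and 0.060).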
